A study of Mus musculus with 6 samples.

Results

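ABC transporters are membrane proteins that use ATP to move lipids, sterols, drugs, bile salts, peptides or metals across membranes, and a few relatives bind ribosomes instead. The pair Abcg5 and Abcg8 forms a single exporter that returns plant sterols and cholesterol from gut and liver cells to the gut lumen and bile, and loss of either partner causes sitosterolaemia. In the testis, the transporters P-glycoprotein and Abcg2 are known for limiting the entry of foreign compounds at the blood-testis barrier. The family was taken as all array probes with a single gene symbol beginning with Abc, followed by a subfamily letter from a to g and a number. That gave 38 probes for 37 genes, of 33012 probes and 13840 singly named genes in all. Abcg4 had 2 probes and every other gene had 1. A further 13 family genes of the RefSeq annotation, Abca7 and Abcc4 among them, had no such probe and were not analysed here.

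RNA from whole testes of adult male C57BL/6J mice, 10 to 12 weeks old, was measured on 6 single-colour arrays. Of these, 2 came from mice labelled wild-type on rodent chow, 2 from mice labelled Abcg8 knockout on chow, and 2 from mice labelled Abcg8 knockout on chow with 0.005% ezetimibe, a drug that blocks sterol uptake from the gut. All 3 groups share the strain, sex, age and basal diet, and both knockout groups lack the same gene by label. The labels give each array its own identifier but describe neither the altered part of Abcg8 nor any batch. The p-values below set each group difference against a spread estimated from these 6 arrays and partly shared between probes.

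Each array gave every probe a raw intensity and its signal-to-noise, a score of signal over noise. A probe was called detected on an array at a signal-to-noise of at least 3, and it was tested when detected on both arrays of at least 1 group. Levels below are quantile-normalised log2 signals, and differences are in log2 units. Arrays of this kind do not allow the level of one probe to be set against that of another, so the text ranks no probe above another. Summed signals of marker lists, given below, follow their brightest probe. Precision is limited by the number of arrays. The median raw signal was 258 on wild-type replicate 2 and 515 to 678 on the other 5 arrays. That array also stood apart on the first principal component, at 53.6 against -17.3 to 0.729. Markers of the testis were present. All 6 measured spermatid genes and all 5 measured Leydig cell genes were tested, as were 5 of 7 Sertoli cell genes, and the Sertoli gene Amh was not detected on any array. In whole tissue, fewer cells of a type and less RNA per cell cannot be told apart.

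Abcg5 and Abcg8 lie head to head on mouse chromosome 17, and the stretch between them is shown because their probes differed in detection. In RefSeq on build GRCm38.p6, Abcg5 spans chr17:84658174-84683011 and Abcg8 spans chr17:84676302-84700333. The Abcg5 start at 84683011 and an Abcg8 start at 84683121 are 110 bases apart and point away from each other. RefSeq lists a further Abcg8 start at 84676302, 6819 bases upstream and inside the span of Abcg5. The 300 bases around the shared start region, chr17:84682871-84683170 on the plus strand, follow, and capitals mark the 109 bases between both starts.
Abcg5/Abcg8 start region: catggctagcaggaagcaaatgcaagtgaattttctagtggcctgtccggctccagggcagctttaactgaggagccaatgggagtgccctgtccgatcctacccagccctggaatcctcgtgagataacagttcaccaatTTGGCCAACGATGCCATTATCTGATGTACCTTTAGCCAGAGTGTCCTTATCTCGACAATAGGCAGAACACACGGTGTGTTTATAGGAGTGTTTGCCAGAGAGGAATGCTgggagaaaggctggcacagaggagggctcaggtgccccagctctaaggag

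Within those 109 bases, the letters AGATAA, a core that GATA factors can bind, occurred at 2 places, and TATAAA, the TATA box core, at 1, all on the minus strand. Both strands were searched, and neither motif overlapped the other there. The region shown held a further AGATAA on the plus strand, at chr17:84682994-84682999, outside the capitals. Among all 32851 RefSeq promoter windows of 300 bases, longer than the 109 bases, AGATAA was found in 11.2% and TATAAA in 13.6%. These matches describe the letters alone.

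Abcg8 rose 14.7-fold in knockout-labelled testes, opposite to what the label names, while its partner Abcg5 was not detected on any array. The raw Abcg8 signal was 1715 and 569 in wild-type-labelled testes, 20013 and 22134 in knockout-labelled testes on chow, and 25697 and 24767 after ezetimibe. The signal-to-noise was 4.88 and 5.28, then 49.3 and 64.7, then 39.6 and 55.5 in the same order. All 4 knockout-labelled arrays were high, both wild-type-labelled arrays were low but detected, and the groups did not overlap. After normalisation the wild-type-labelled arrays read 10.34 and 10.29, those labelled knockout 14.04 and 14.35, and those with ezetimibe 14.42 and 14.40.

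Knockout-labelled minus wild-type-labelled, Abcg8 stood at 3.88 log2 units (SE 0.13, 95% interval 3.54 to 4.22), or 14.7-fold, with limma adjusted p = 0.0177. With ezetimibe against wild-type-labelled arrays it was 4.10 (SE 0.13, 95% interval 3.76 to 4.44), or 17.1-fold, with limma adjusted p = 0.0135. In the F test over the 3 groups, the limma adjusted p was 0.0222. Its range over the 6 arrays was 4.13 log2 units, the widest of the tested family and rank 26 among all 16015 tested probes. The wild-type-labelled signal lay close to the detection limit, where differences can be compressed.

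The size of the Abcg8 difference did not hang on a single array. Its call for knockout-labelled arrays on chow was lost whichever array was left out, an ezetimibe array included. Each such fit leaves a group with a lone array, so it cannot show which array, if any, the call rested on. With each of the 6 arrays left out in turn, that difference was 3.71 to 4.04, and the limma adjusted p was 0.0611 to 0.34, so no such fit passed. In those fits the lone array of a group admits probes by itself. With the same 16015 probes tested, a choice made after seeing the data, the adjusted p was 0.0557 to 0.201, and it was higher than before without either wild-type-labelled array and lower without any of the other 4. Without any filter on dim probes it was 0.231. Where the Abcg8 probe sits relative to the part of Abcg8 that was altered is not stated in the labels, so its signal may say nothing on whether the labels are right. Genotype directions are those of the labels.

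Abcg5 gave raw signals of 298 and 130 in wild-type-labelled testes, 175 and 275 in knockout-labelled testes, and 301 and 422 with ezetimibe. Its signal-to-noise ran from 0.25 to 1.97 over the 6 arrays, below the detection limit on every one. The Abcg8 probe was thus detected on all 6 arrays and the single Abcg5 probe on none. Whether Abcg5 RNA was absent or its probe was weak was not tested. Neighbouring genes were read as well. Dync2li1, a ciliary dynein gene beside Abcg5, read 14.19 ± 0.06 on wild-type-labelled, 14.19 ± 0.00196 on knockout-labelled and 14.24 ± 0.09 on ezetimibe arrays (SD, n = 2 each). Lrpprc, which stabilises mitochondrial RNA and lies beside Abcg8, differed by -0.21 (limma adjusted p = 0.615), and Slc3a1, a subunit of a cystine transporter, by -1.24 (adjusted p = 0.523). Of 5 tested neighbours, 0 passed in any of the 3 comparisons, where limma called at most 0.0125% of all tested probes. For knockout-labelled against wild-type-labelled arrays, 1 lay above 0 and 4 below.

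**Figure D1:**
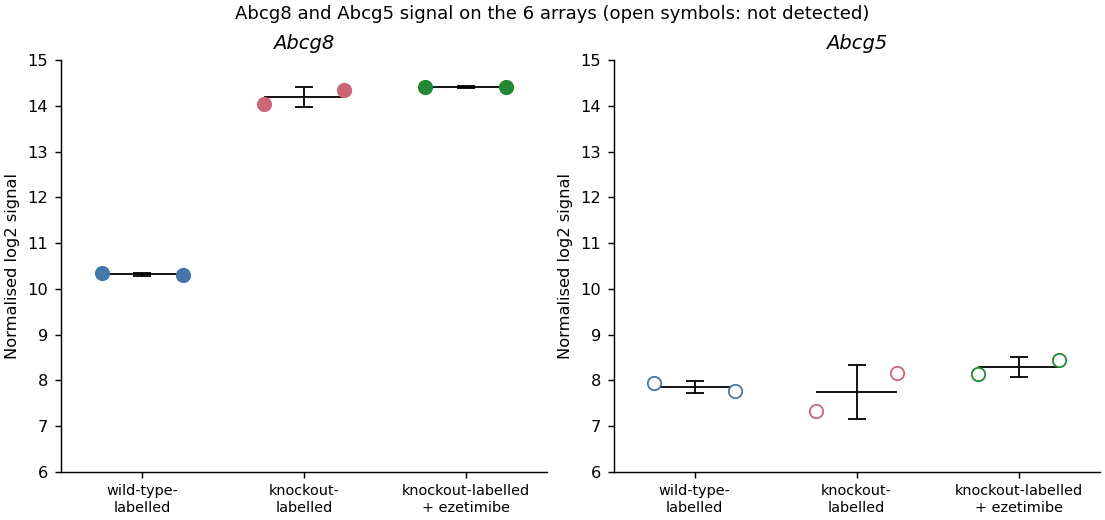
Normalised log2 signal of Abcg8 (left) and Abcg5 (right) on each of the 6 arrays. Points are arrays, coloured by group. Horizontal lines are group means and bars the SD of 2 arrays. Open points mark a signal-to-noise under 3. Abcg8 sat near 10.3 on both wild-type-labelled arrays and at 14.04 to 14.42 on the other 4, and Abcg5 was open throughout.

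Liver and gut, where Abcg8 is normally active, could be carried along in a sample, so their markers were read beside it. Of 6 liver markers on the array, 5 were not detected on any array, namely Alb, Ttr, Apoa1, Fgb and Cyp7a1. Apoh was the 1 tested, at 14.17 on wild-type-labelled and 13.84 on knockout-labelled arrays (limma adjusted p = 0.545). The summed normalised signal of the 6, most of it from Apoh, was 18101 to 21574 for wild-type-labelled, 15705 to 16248 for knockout-labelled arrays on chow and 16168 to 17966 with ezetimibe. Of 4 gut markers, Vil1 and Cdx2 were not detected on any array, and Apoa4 was tested and differed by 0.07. Fabp2 was detected on knockout replicate 2 at a signal-to-noise of 6.37 and on ezetimibe replicate 1 at 4.48. Its mean log2 signal was 7.47 on wild-type-labelled, 8.73 on knockout-labelled and 8.67 on ezetimibe arrays. The replicates read 7.39 and 7.55, then 8.14 and 9.32, then 9.63 and 7.71 in the same order. The part of Fabp2 in the Abcg8 values was not tested. The summed signal of these 4 was 1677 to 2183, 1852 to 2647 and 2264 to 2363 in the same order. Of 4 fat markers on the array, Fabp4 was uneven. Its raw signal was 15688 on wild-type replicate 1, 28714 on knockout replicate 1 and 216 to 1062 on the others. Plin1 was detected on all 6 arrays, Lep on 1 and Cidec on none. Whether the samples held uneven amounts of fat was not tested.

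On both arrays of at least 1 group, the testis arrays detected 12 of the 38 family probes, or 31.6%, against 59% of all 14411 singly named probes. Each of the 6 arrays detected 14 family probes, though not the same 14. That was 36.8% of the family probes on every array. The 12 tested genes came from every subfamily: Abca2, Abca14 and Abca16, Abcb1a and Abcb10, Abcc12, Abcd4, Abce1, Abcf1 and Abcf3, and Abcg2 and Abcg8. Of these, 10 were detected on all 6 arrays. The exceptions were Abcd4, with a signal-to-noise of 2.02 on wild-type replicate 1, and Abcb1a, with 2.82 on wild-type replicate 2. Of the other 26 probes, 10 were detected on some arrays and 16 on none.

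**Figure D2:**
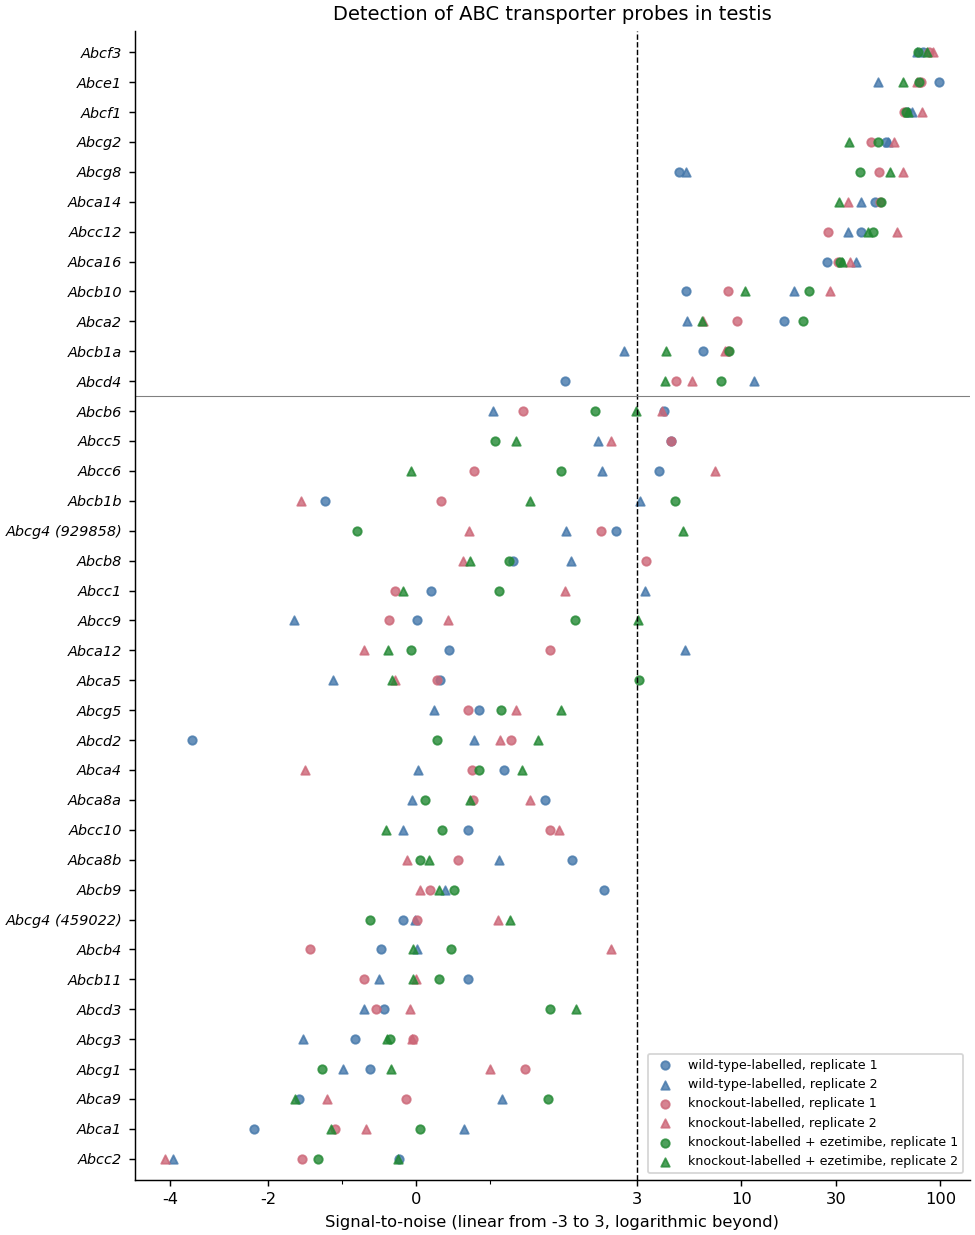
Signal-to-noise of the 38 ABC probes on each array. Each row is a probe, each point an array, coloured by group, with circles for replicate 1 and triangles for replicate 2. The dashed line is the detection limit of 3. The 12 rows above the grey line were tested, and the 26 below were not detected on both arrays of any group.

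Among sterol exporters, Abcg8 alone was detected on both arrays of a group. Abca1, which loads cholesterol onto apolipoprotein A-I, had a signal-to-noise of -2.20 to 0.65. Abcg1, which passes cholesterol to HDL, had -1.27 to 1.48, although its raw signal reached 2133 on wild-type replicate 1. Raw signal alone thus did not decide detection. Abcg4, a close relative of Abcg1, had 2 probes that differed in detection. Probe 459022 had a signal-to-noise of -0.18 and -0.01, then 0.02 and 1.11, then -0.63 and 1.28, while probe 929858 read 2.71 and 2.04 on wild-type-labelled arrays, 2.51 and 0.72 on those labelled knockout, and -0.80 and 5.09 with ezetimibe. It passed the limit on ezetimibe replicate 2 alone.

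Abca14 and Abca16 are rodent genes of the A subfamily known mainly from testis, and both were detected on all 6 arrays. They flank Abca15 on chromosome 7, Abca14 at chr7:120203927-120325354 and Abca16 at chr7:120409647-120544892, with no other protein-coding gene between them. Abca15 had no probe. Abca14 read 12.28 and 12.23 on wild-type-labelled arrays, 12.03 and 12.43 on knockout-labelled arrays, and 12.44 and 12.30 with ezetimibe. Abca16 read 14.34 and 14.60, then 14.39 and 14.38, then 14.36 and 14.58. For both genes the wild-type-labelled and knockout-labelled values overlapped. The difference of Abca14 was -0.03 (95% interval -0.45 to 0.39) and that of Abca16 was -0.09 (-0.45 to 0.27).

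Another A subfamily cluster lies on chromosome 11, where Abca8b, Abca8a, Abca9, Abca6 and Abca5 follow each other. Abca6 had no probe, and none of the other 4 was tested. Abca8a, Abca8b and Abca9 were not detected on any array, and Abca5 had a signal-to-noise of 0.33 and -1.13 on wild-type-labelled arrays, 0.28 and -0.28 on knockout-labelled arrays, and 3.06 and -0.32 with ezetimibe. Abca4, which clears retinoids in photoreceptors, was not detected on any array. Abca12, which carries lipids in the skin, had a signal-to-noise of 0.45 and 5.19, then 1.82 and -0.70, then -0.07 and -0.38, passing the limit on wild-type replicate 2 alone. Abca2, a lysosomal lipid transporter best known from brain, was detected on all 6 arrays. It read 10.65 and 10.53 on wild-type-labelled arrays, 10.41 and 10.11 on knockout-labelled arrays, and 10.27 and 10.55 with ezetimibe. The knockout-labelled arrays lay below the wild-type-labelled ones, with a difference of -0.32 (SE 0.16, 95% interval -0.74 to 0.09, limma adjusted p = 0.571). Abca2 had the lowest F test p after Abcg8, and it did not pass (adjusted p = 0.739).

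Of the drug and bile exporters, Abcg2 and Abcb1a were tested. Abcg2, the breast cancer resistance protein, read 13.80 and 13.69 on wild-type-labelled arrays, 13.88 and 13.93 on knockout-labelled arrays, and 13.82 and 13.68 with ezetimibe. The knockout-labelled arrays were the highest, by 0.16 over wild-type-labelled arrays (95% interval -0.11 to 0.43, limma adjusted p = 0.612). Its rodent relative Abcg3 was not detected on any array. Abcb1a, a P-glycoprotein gene, read 9.97 and 9.02 on wild-type-labelled arrays, 9.49 and 9.58 on knockout-labelled arrays, and 9.65 and 9.35 with ezetimibe. Its wild-type-labelled arrays lay apart, the lower one being the dim array where it missed the detection limit, and the difference of 0.04 had an interval of -0.82 to 0.90.

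Abcb1b and Abcb4 follow Abcb1a in a row on chromosome 5. Abcb1b, the other P-glycoprotein gene, had a signal-to-noise of -1.24 and 3.10 on wild-type-labelled arrays, 0.34 and -1.56 on knockout-labelled arrays, and 4.63 and 1.55 with ezetimibe. No group had it on both arrays. Abcb1a and Abcb1b are close copies, and whether their probes share signal was not tested. Abcb4, which moves phosphatidylcholine into bile, and Abcb11, the bile salt export pump, were not detected on any array.

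The mitochondrial transporter Abcb10, which supports haem synthesis, was detected on all 6 arrays. It read 11.62 and 11.61 on wild-type-labelled arrays, 11.46 and 11.51 on knockout-labelled arrays, and 11.32 and 11.64 with ezetimibe. The knockout-labelled arrays lay below the wild-type-labelled ones by 0.13, with a 95% interval for the difference of -0.48 to 0.22 (limma adjusted p = 0.729), and under median scaling the difference turned to 0.0056. The 2 measured red cell genes, Hba-a1 and Alas2, had a summed normalised signal of 66077 to 68504 on wild-type-labelled, 163152 to 326718 on knockout-labelled and 36791 to 57806 on ezetimibe arrays. Hba-a1, a haemoglobin gene, differed by 1.85, knockout-labelled minus wild-type-labelled (limma adjusted p = 0.435) and Alas2, of haem synthesis, by 0.27 (adjusted p = 0.612). Their part in the Abcb10 values was not tested. Abcb6, a porphyrin transporter, had a signal-to-noise of 4.09 and 1.04 on wild-type-labelled arrays, 1.45 and 4.01 on knockout-labelled arrays, and 2.43 and 2.98 with ezetimibe. Abcb8, of mitochondria, had a signal-to-noise of 1.32 and 2.10, then 3.31 and 0.64, then 1.26 and 0.73. Abcb9, a lysosomal peptide transporter, was not detected on any array.

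In the C subfamily, Abcc12 was the 1 gene of 7 that was tested. It was the steadiest member of the family, reading 13.02 and 13.07 on wild-type-labelled arrays, 13.04 and 13.07 on knockout-labelled arrays, and 13.10 and 13.13 with ezetimibe. Its whole range was 0.11 log2 units, smaller than that of all but 1.27% of tested probes. Knockout-labelled arrays differed from wild-type-labelled ones by 0.0080 (95% interval -0.22 to 0.24). Abcc5, an exporter of cyclic nucleotides, had a signal-to-noise of 4.45 and 2.47 on wild-type-labelled arrays, 4.41 and 2.64 on knockout-labelled arrays, and 1.07 and 1.36 with ezetimibe. Abcc6, mainly a liver gene, had 3.88 and 2.52, then 0.78 and 7.41, then 1.97 and -0.07, so no group had Abcc5 or Abcc6 on both arrays. Abcc1, an exporter of glutathione conjugates, had a signal-to-noise of 0.21 and 3.30, then -0.28 and 2.02, then 1.13 and -0.18. Abcc9, a subunit of ATP-sensitive potassium channels, had 0.01 and -1.66, then -0.37 and 0.43, then 2.16 and 3.01, and each passed the limit on a single array. Abcc2 and Abcc10 were not detected on any array.

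Of the D subfamily, the peroxisomal fatty acid transporters Abcd2 and Abcd3 were not detected on any array. Abcd4, which serves cobalamin export from lysosomes, read 8.48 and 9.91 on wild-type-labelled arrays, 8.81 and 9.51 on knockout-labelled arrays, and 9.64 and 9.52 with ezetimibe. The 2 wild-type-labelled arrays were the lowest and the highest of the 6, so the groups overlapped widely. The first difference, -0.03 for knockout-labelled minus wild-type-labelled, had an interval of -1.37 to 1.30, the widest among the tested members. Of 5 tested peroxisomal genes listed as companions of this subfamily, Pex14 of peroxisome import among them, 0 passed in any comparison. Limma called at most 0.0125% of all tested probes in a comparison.

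The ribosome-linked members were all detected on all 6 arrays, and at high signal-to-noise. Abce1, which splits ribosomes after translation ends, had a signal-to-noise of 48.3 to 98.4, Abcf1, a partner of initiation, 66.0 to 80.6, and Abcf3 76.5 to 91.4. Abce1 read 14.00 and 13.85 on wild-type-labelled arrays, 14.07 and 14.02 on knockout-labelled arrays, and 13.96 and 13.95 with ezetimibe. Abcf1 read 14.65 and 14.44, then 14.67 and 14.62, then 14.48 and 14.59. Abcf3 read 14.99 and 14.88, then 14.73 and 15.11, then 14.83 and 14.99. Both Abce1 values of the knockout-labelled arrays lay above the wild-type-labelled ones, with a difference of 0.12 (95% interval -0.14 to 0.38), while the groups overlapped for Abcf1 at 0.10 (-0.20 to 0.40) and Abcf3 at -0.02 (-0.44 to 0.40).

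**Figure D3:**
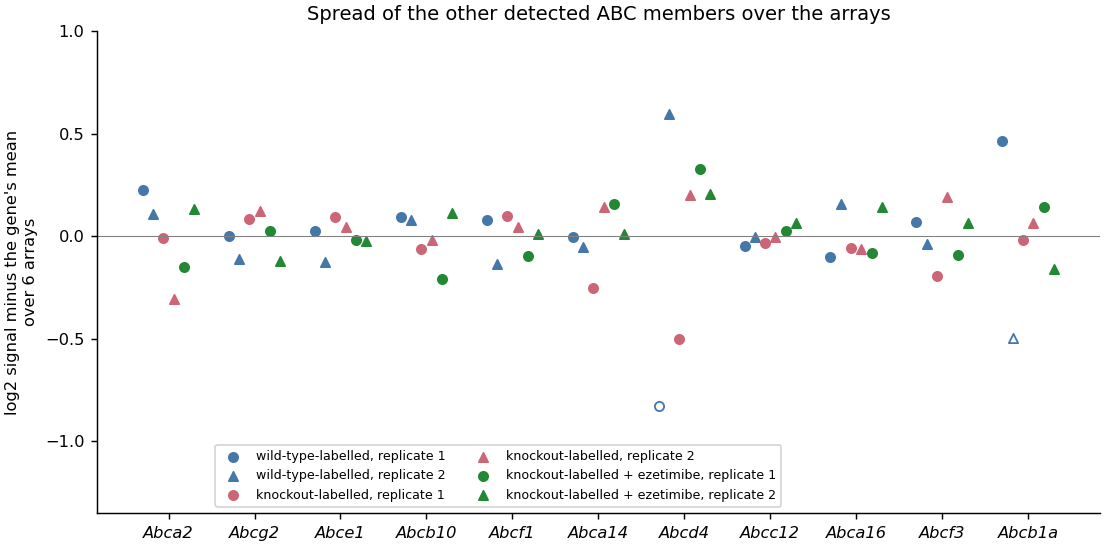
Normalised log2 signal of the 11 tested members other than Abcg8, minus each gene's mean over the 6 arrays. Points are arrays, coloured by group, with circles for replicate 1 and triangles for replicate 2, and open symbols mark a signal-to-noise under 3. Abcc12 is the tightest, with a range of 0.11, and Abcd4 the widest, with a range of 1.43.

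The members other than Abcg8 ranged widely in how steady they were. The 9 of them detected on all 6 arrays had a median range over the arrays of 0.26, against 0.37 for all 12990 probes detected on every array. Their median spread within groups was 0.13, against 0.12. Abcd4 and Abcb1a, each undetected on 1 array, had ranges of 1.43 and 0.96, at percentiles 89 and 80.4 of all tested probes, and Abca2 lay at percentile 60.4.

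In the first comparison, knockout-labelled against wild-type-labelled arrays, 1 of 12 tested family probes was called, Abcg8, where limma called 0.0125% of all tested probes. An unadjusted p under 0.05 was reached by 1 of 12, against 8.99% of all. Both knockout-labelled arrays lay above both wild-type-labelled ones for 3 members, Abcg8, Abcg2 and Abce1, against 22.6% of all tested probes, and below for Abca2 and Abcb10, against 21.1%. The 12 split evenly, 6 above and 6 below 0, with a median of -0.0046 against 0.0052 over all tested probes. Under median scaling, which shifted the median of all probes to 0.11, the split was 11 above and 1 below, and the family's median was 0.09. The 11 members other than Abcg8 differed by -0.32 to 0.16, with limma adjusted p of 0.571 or more. For 10 of these 11 the 95% interval lay within 1 log2 unit of 0, and Abcd4 was the exception, against 79% of all tested probes.

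The next comparison asked what ezetimibe changed in knockout-labelled testes, and no family member was called. Limma called 0% of all tested probes, and 0 of 12 members reached an unadjusted p under 0.05, against 5.76% of all. Abcg8 differed by 0.22 (SE 0.13, 95% interval -0.12 to 0.56, limma adjusted p = 0.913). Both ezetimibe arrays lay above both chow-fed knockout-labelled arrays for 3 members, Abcg8, Abcd4 and Abcc12, against 19.1% of all, and below for 3, Abcg2, Abce1 and Abcf1, against 19.7%. The 11 others differed by -0.15 for Abcg2 (95% interval -0.42 to 0.12) to 0.42 for Abcd4 (-0.92 to 1.76). The 12 again split into 6 above and 6 below 0, with a median of 0.03 against 0.00091 over all tested probes.

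The last comparison set ezetimibe-fed knockout-labelled testes against wild-type-labelled testes, and shares its arrays with the previous comparisons. Abcg8 was the 1 member of 12 called, where limma called 0.0125% of all tested probes, and 1 of 12 had an unadjusted p under 0.05, against 7.24% of all. Both ezetimibe arrays lay above both wild-type-labelled arrays for Abcg8, Abca14 and Abcc12, against 18.6% of all, and below for 0 members, against 18.2%. The 11 others differed by -0.17 for Abca2 (95% interval -0.59 to 0.24) to 0.38 for Abcd4 (-0.96 to 1.72), with adjusted p of 0.843 or more. Of the 12, 8 lay above 0 and 4 below, with a median of 0.0066 against 0.0042 over all tested probes. In the F test over the 3 groups, Abcg8 was again the 1 member called, where 0.0125% of all probes were.

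**Figure D4:**
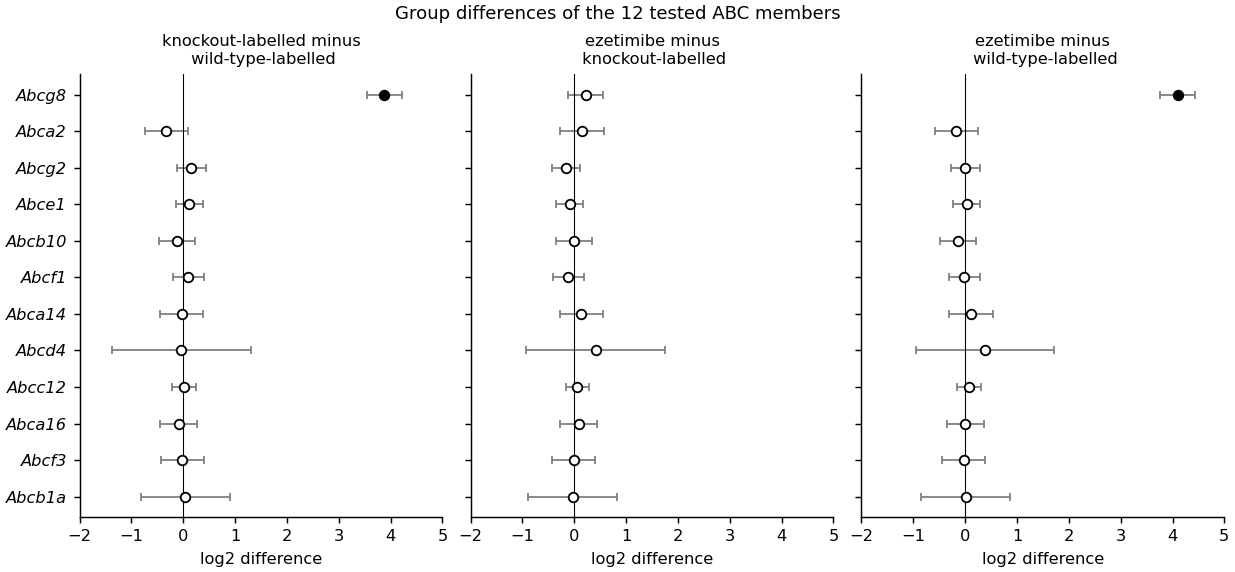
Log2 differences of the 12 tested members in the 3 comparisons, with 95% intervals from limma as bars. Filled points passed an adjusted p of 0.05. Abcg8 lies at 3.88 and 4.10 in the comparisons with wild-type-labelled arrays, and every other interval includes 0.

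ABC proteins that carry other symbols were read from a short list. Cftr, the chloride channel of the C subfamily, was tested and differed by 1.40 (SE 0.68, limma adjusted p = 0.571), knockout-labelled minus wild-type-labelled. Its wild-type-labelled arrays read 9.16 and 7.28, the lower on the dim array. The peptide transporter gene Tap2 was not detected on any array, and Tap1, its partner, was not tested. A list of 41 genes covered sterol handling and LXR control, the receptor system that drives Abca1, Abcg1, Abcg5 and Abcg8 in other tissues. Of these, 27 had a probe with a single gene symbol, and 20 were tested. None of the 20 passed in any comparison, where limma called at most 0.0125% of all tested probes. For knockout-labelled minus wild-type-labelled, 7 lay above 0 and 13 below, with a median of -0.06 against 0.0052 over all tested probes. Nr1h3, the LXR alpha gene, differed by -0.11 (adjusted p = 0.657), and Apoe by 0.24 (adjusted p = 0.593). Apoe, a carrier of lipids between cells, differed by -0.72 for ezetimibe against knockout-labelled arrays (limma adjusted p = 0.540) and by -0.48 against wild-type-labelled ones (adjusted p = 0.635). For ezetimibe against knockout-labelled arrays, 10 of the 20 lay above 0 and 10 below, with a median of 0.0082. Against wild-type-labelled arrays, 8 lay above 0 and 12 below, with a median of -0.04.

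Promoter windows were found for 11 of the 12 tested genes, 14 windows in all, and for 19 of the others, 21 windows. The median GC content was 58.2% in the former and 57.0% in the latter, against 52.7% over all windows. The letters TGACGTCA, the cAMP response element to which the spermatid factor Crem binds, occurred in 2 of the 14 windows, those of Abce1 and of 1 start of Abcg2, and in 0 of the 21, against 1.79% of all windows. AGATAA occurred in 3 of the 14, in Abca14, Abca16 and the Abcg8 start shown above, and in 2 of the 21, Abca12 and Abcg5, whose window overlaps that of Abcg8 by 209 bases. TATAAA was found in 3 of the 14, namely 2 starts of Abcg2 and the Abcg8 start shown above. It was found in 4 of the 21, Abcg5 among them, against 13.6% of all windows. These counts are descriptions of short windows.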

How the data were processed

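Testis RNA was labelled with digoxigenin and hybridised to single-colour arrays, per the labels' protocols. Per the file headers, the first deposited table gives each probe a raw signal intensity and a score, its signal-to-noise. No label or header names the scanner software or a background step. The authors' deposited processed values equal the raw intensity divided by 1 constant per array close to its median, with a median of 1 on each array, and were one of the alternatives. No per-sample column was left unused (0 further columns).

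Raw signals were taken as log2 values and quantile-normalised with limma 3.58.1 in R 4.3.3, without background correction. Probes with a signal-to-noise of at least 3 on both arrays of a group, 16015 in all, were fitted with 1 mean per group and a shared spread over all 6 arrays (lmFit, eBayes). P-values were adjusted by Benjamini-Hochberg over all tested probes within a comparison, with a threshold of 0.05. The fit was tested on simulated data. With 2 arrays a group, the smallest p of an exact permutation test is 0.333, and none was run.

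Gene names came from the platform annotation, checked by gene identifier against RefSeq on GRCm38.p6, which changed 0 symbols and supplied the promoter windows (250 bases before to 50 after a start). The family and the gene lists were chosen with earlier results of these data known. All members are named, with values on every array for Abcg8, Abcg5, the other tested members and members detected on some arrays or by probes that disagree. Replicates share no numbers across groups in the labels. Alternatives were median scaling, the authors' values, normexp with offset 50, other filters, an intensity trend or robust prior variance, array weights, fits to 2 groups alone, all knockout-labelled arrays together and leaving out each array.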

Additional observations from a re-analysis of the deposited data

How the results depend on the processing

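The size and direction of the Abcg8 difference held in every alternative run, and its call did not. Against wild-type-labelled arrays, 1 family probe passed with all arrays. Among the alternatives that left out no single array, Abcg8 was called in 8 of 10 for knockout-labelled arrays. For ezetimibe against wild-type-labelled arrays it was called in 8 of 9, and in the F test in 7 of 8. Without a filter on dim probes 0 passed for knockout-labelled arrays (limma adjusted p = 0.231), for ezetimibe (0.195) and in the F test (0.323), and in the fit to the 2 compared groups alone 0 passed for knockout-labelled arrays (0.126). With 1 array left out, 0 passed in all 6 fits of each of these tests, and with the same probes kept, chosen after seeing the data, 0 passed in all 6 fits for knockout-labelled arrays and the F test, while for ezetimibe 0 passed in 4 fits and 1 in the other 2. No other member passed in any alternative. The count of detected genes, 12, was 17 at a signal-to-noise of 2, 11 at 5, 10 on all 6 arrays and 22 on any 1 array.

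Differences near 0 turned sign under some settings, and none of these passed. With median scaling, knockout-labelled minus wild-type-labelled was 0.0368 for Abca16, 0.0470 for Abcd4, 0.0899 for Abca14, 0.0952 for Abcf3 and 0.00561 for Abcb10, and ezetimibe minus wild-type-labelled was 0.0586 for Abcf1 and 0.0352 for Abcf3. The authors' deposited values are nearly the same scaling, so their close match to it was given in advance. With them these were 0.0373, 0.0502, 0.0905, 0.0956, 0.00680, 0.0581 and 0.0348 in the same order, and ezetimibe minus knockout-labelled was -0.000561 for Abcc12. With the 4 knockout-labelled arrays together, Abcd4 gave 0.175 and Abca14 0.0427.

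With each array left out, knockout-labelled minus wild-type-labelled ranged from -0.226 to 0.170 for Abca14, -0.216 to 0.0435 for Abca16, -0.447 to 0.517 for Abcb1a, -0.0142 to 0.0294 for Abcc12, -0.740 to 0.705 for Abcd4, -0.00708 to 0.204 for Abcf1 and -0.210 to 0.176 for Abcf3. Ezetimibe minus knockout-labelled ranged from -0.0581 to 0.339 for Abca14, -0.0213 to 0.199 for Abca16, -0.167 to 0.155 for Abcb10, -0.180 to 0.120 for Abcb1a and -0.205 to 0.181 for Abcf3. Ezetimibe minus wild-type-labelled ranged from -0.127 to 0.131 for Abca16, -0.294 to 0.0267 for Abcb10, -0.480 to 0.485 for Abcb1a, -0.327 to 1.13 for Abcd4, -0.0431 to 0.105 for Abce1, -0.123 to 0.0918 for Abcf1, -0.109 to 0.0499 for Abcf3 and -0.0680 to 0.0781 for Abcg2. The cause of these changes was not tested. The filter on all 6 arrays gave no value for Abcd4 and Abcb1a. Over all tested probes, an intensity trend raised the calls to 31 and 26 against wild-type-labelled arrays, 14 for ezetimibe against knockout-labelled arrays and 38 in the F test. No paired analysis was possible because the labels give no replicate numbers shared between groups. Probes near the detection limit, such as Abcd4 and Abcb1a, are limited by signal over background.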
